A study of Mus musculus with 11 samples.

Results

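Hepcidin and the genes that respond to bone morphogenetic protein (BMP) signals through SMAD proteins were followed across 11 arrays of sorted mouse liver cells. The 10 genes are the hepcidin genes Hamp and Hamp2, the 4 ID genes Id1, Id2, Id3 and Id4, the SMAD genes Smad6, Smad7 and Smad9, and the transcription factor gene Atoh8. They were selected on earlier results of these arrays, by gene symbol, and all 10 were found among 23185 named genes. Each has 1 feature on the array. Values among the YFP+ groups helped to choose these genes, so their differences between those groups are given as a description with no test.

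The cells came from mice whose lineage carries a yellow fluorescent protein (YFP) label. The promoter or Cre line that drives the label is not named in the sources used here. Livers were digested, non-parenchymal cells were collected after a slow spin, and live cells were sorted on YFP. The groups are YFP+ cells of untreated mice (UTR, 2 arrays), YFP+ cells of mice given the CDE diet (3 arrays), YFP+ cells of mice given the DDC diet for 5 weeks (3 arrays) and YFP- cells of untreated mice (3 arrays). In this field CDE names a choline-deficient, ethionine-supplemented diet and DDC a diet with diethoxycarbonyl-dihydrocollidine. Both are used to injure the mouse liver and expand cells at the bile ducts. The duration of the CDE diet, the strain, and the ages are not given in the labels. The protocol names 4 mice on DDC. Whether each array is a separate animal is not stated, so the p-values reflect sample-to-sample spread, part of which may be technical.

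Hepcidin is a peptide hormone made mainly by hepatocytes. It binds the iron exporter ferroportin and causes its loss from cells, which lowers iron entry into blood. In hepatocytes its transcription is driven by BMP ligands, chiefly BMP6 and BMP2 from sinusoidal endothelial cells. The ligands bind a receptor complex with the co-receptor hemojuvelin, and the receptors phosphorylate SMAD1, SMAD5 and SMAD8, which act with SMAD4. Interleukin-6 adds a second drive through STAT3. The same SMAD complex turns on Id1, Smad6, Smad7 and Atoh8 in hepatocytes, and these are commonly read as companions of hepcidin.

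All values below are log2 expression levels, and a difference of 1 is a 2-fold change if the base of the deposited logarithm is 2, as its range implies. A level under 4.33, the lower quartile of all values, is called dim. There, background signal compresses differences, so a difference from a group with a dim mean is given as "at least" where the groups do not overlap. Errors of levels are SD and errors of differences are SE of the fit.

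Hamp was the gene with the largest difference between CDE and untreated YFP+ cells. Its level was 4.75 and 5.57 in the UTR arrays and 10.21, 12.52 and 9.93 in the CDE arrays. It was 3.82, 5.33 and 6.48 in the DDC arrays. Every CDE array lay far above every UTR and DDC array, and the DDC arrays lay on both sides of the UTR arrays. The means were 5.16 ± 0.58 (SD, n = 2), 10.89 ± 1.42 (SD, n = 3) and 5.21 ± 1.34 (SD, n = 3), so CDE exceeded UTR by 5.73 ± 0.90, a 53.1-fold difference that ranked 1 of 23185 genes by size. DDC differed from UTR by 0.05 ± 0.90 and from CDE by -5.68 ± 0.81. YFP- cells held 6.31, 8.93 and 9.43, below all CDE arrays and, apart from the first, above all UTR and DDC arrays. In order of mean level the groups ran CDE, YFP- (8.22 ± 1.67, n = 3), DDC and UTR. Only CDE stood clear of its neighbour in that order. In sorted populations, fewer cells that make a transcript and less transcript per cell cannot be told apart.

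Hamp2 is the duplicate of hepcidin found in mice. It was dim in both UTR arrays (3.46 and 3.80) and all 3 DDC arrays (3.93, 4.03 and 3.67), and measured 5.82, 8.22 and 6.89 in the CDE arrays. The CDE arrays again stood apart from all other YFP+ arrays. The CDE mean exceeded UTR by at least 3.34 ± 0.56, rank 2 of 23185, and DDC minus CDE was -3.10 ± 0.50, again at least that large because DDC was dim. YFP- arrays measured 3.72, 5.06 and 4.04, so unlike Hamp the gene was near the dim range there. Hamp and Hamp2 share long stretches of sequence. Probe sequences were not used here, and whether Hamp transcripts add to the Hamp2 signal was not tested.

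**Figure D1:**
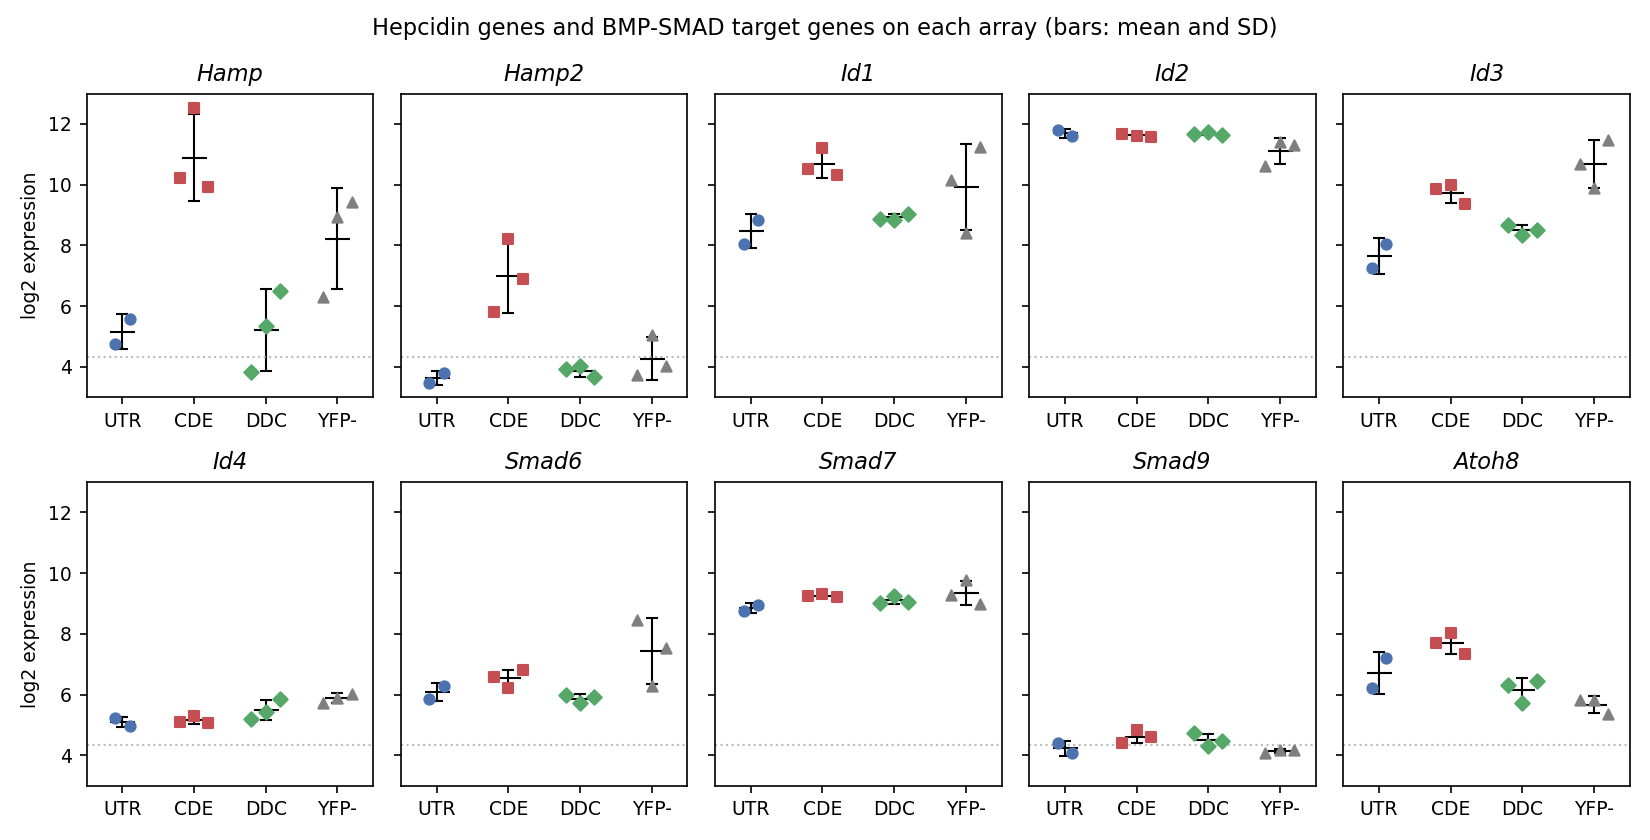
Log2 expression of the 10 genes on each of the 11 arrays, 1 panel per gene, with the group on the x axis, bars for the mean and SD and a dotted line at 4.33, the lower quartile of all values. Hamp lay at 9.93 to 12.52 in the CDE arrays against 3.82 to 6.48 in the other YFP+ arrays, while Id2 stayed between 11.58 and 11.79 in all YFP+ arrays.

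The ID proteins bind basic helix-loop-helix factors and keep them off DNA. Id1 is the standard immediate readout of BMP-activated SMADs, and Id3 shares much of its control. Id1 measured 8.06 and 8.85 in UTR, 10.52, 11.20 and 10.31 in CDE, and 8.88, 8.85 and 9.04 in DDC. All CDE arrays lay above all UTR and DDC arrays, and the DDC arrays lay close to the higher UTR array. The CDE minus UTR difference was 2.22 ± 0.29, or 4.65-fold, and ranked 7. DDC differed from UTR by 0.47 ± 0.29, and by 0.07 without UTR replicate 1 and 0.86 without UTR replicate 2.

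Id3 measured 7.24 and 8.06 in UTR, 9.84, 9.99 and 9.35 in CDE, and 8.67, 8.35 and 8.50 in DDC. The 3 groups did not overlap, with UTR lowest, DDC between and CDE highest. CDE exceeded UTR by 2.08 ± 0.26 (4.22-fold, rank 9) and DDC exceeded UTR by 0.86 ± 0.26 (rank 367). The DDC difference ran from 0.45 without UTR replicate 1 to 1.27 without UTR replicate 2.

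Id2 and Id4 showed no such separation. Id2 measured 11.79 and 11.59 in UTR, 11.66, 11.61 and 11.58 in CDE, and 11.67, 11.73 and 11.63 in DDC, with overlapping groups and a CDE minus UTR difference of -0.07 ± 0.10. Id4 measured 5.22 and 4.98 in UTR, 5.10, 5.31 and 5.07 in CDE, and 5.21, 5.42 and 5.85 in DDC, with overlapping groups and differences of 0.06 ± 0.19 on CDE and 0.39 ± 0.19 on DDC.

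Atoh8 encodes a helix-loop-helix factor known to act on hepcidin transcription. Its levels were 6.22 and 7.20 in UTR, 7.70, 8.03 and 7.34 in CDE, and 6.30, 5.72 and 6.44 in DDC. All CDE arrays lay above all other YFP+ arrays, by only 0.49 on average over the higher UTR array, and the DDC arrays overlapped the UTR arrays. The CDE minus UTR difference was 0.98 ± 0.33 (1.97-fold, rank 132), and DDC minus CDE was -1.54 ± 0.30 (rank 75). The spread of the UTR arrays sets the first of these: it was 0.49 without UTR replicate 1 and 1.47 without UTR replicate 2.

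Smad6 and Smad7 encode the inhibitory SMADs, which are induced by the pathway and switch it off at the receptor. Smad7 measured 8.74 and 8.96 in UTR, 9.26, 9.32 and 9.21 in CDE, and 9.02, 9.24 and 9.05 in DDC. All CDE and all DDC arrays lay above both UTR arrays, with small differences of 0.42 ± 0.11 and 0.26 ± 0.11, the second 0.15 without UTR replicate 1. Smad6 measured 5.87 and 6.29 in UTR, 6.57, 6.22 and 6.81 in CDE, and 5.98, 5.71 and 5.93 in DDC. One CDE array fell within the UTR range, so the groups overlapped (0.45 ± 0.19, or 0.24 without UTR replicate 1), whereas every CDE array lay above every DDC array (DDC minus CDE -0.66 ± 0.17). In CDE replicate 2, where Hamp, Hamp2, Id1, Id3 and Atoh8 were each highest among the YFP+ arrays, Smad6 was the lowest of the CDE arrays.

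Smad9 encodes SMAD8, 1 of the 3 SMADs that carry the BMP signal. Its levels stayed close to the dim range, at 4.40 and 4.06 in UTR, 4.40, 4.84 and 4.59 in CDE, and 4.72, 4.30 and 4.48 in DDC. The UTR mean of 4.23 was dim, the groups overlapped, and CDE minus UTR was 0.38 ± 0.18, or 0.21 without UTR replicate 2.

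**Figure D2:**
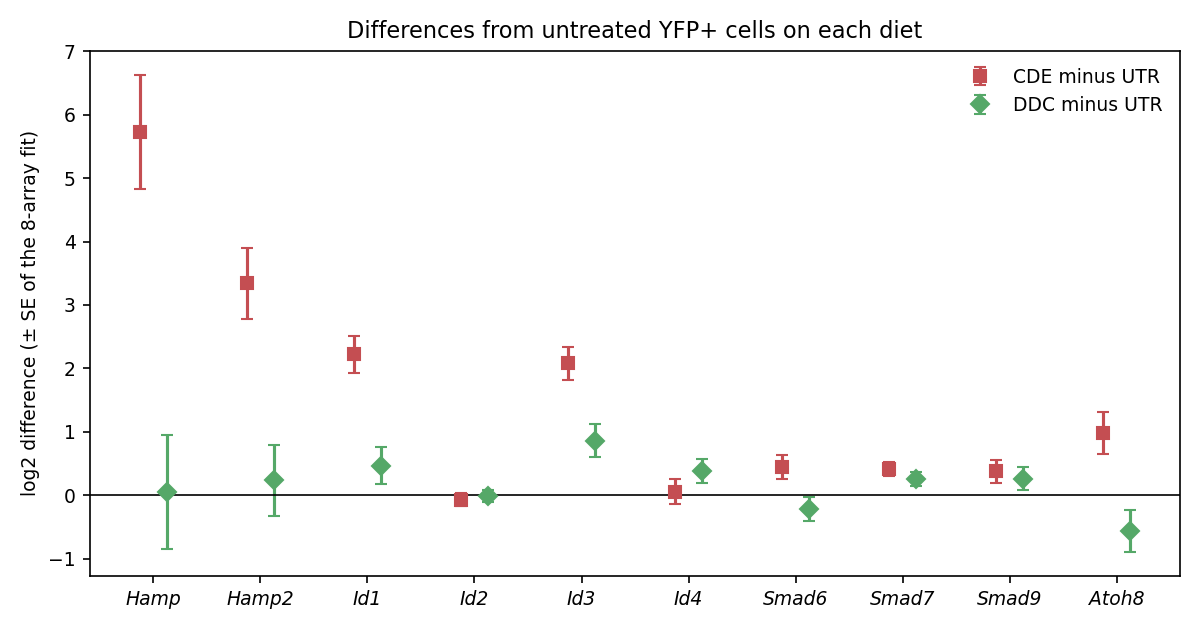
Log2 difference from untreated YFP+ cells for each gene on the y axis, for CDE and for DDC, with SE of the 8-array fit as bars. On CDE the differences ran from -0.07 (Id2) to 5.73 (Hamp), and on DDC from -0.56 (Atoh8) to 0.86 (Id3).

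Counted together, every CDE array lay above every UTR array for 6 of the 10 genes (Hamp, Hamp2, Id1, Id3, Smad7 and Atoh8). Of all named genes, 11.5% met that rule. Every DDC array lay above every UTR array for Id3 and Smad7, 2 of 10, against 12.7% of all genes. Every CDE array lay above every DDC array for 6 of 10 (Hamp, Hamp2, Id1, Id3, Smad6 and Atoh8), against 10.6% of all genes. For 5 of 10 (Hamp, Hamp2, Id1, Id3 and Atoh8) CDE arrays were above all UTR and all DDC arrays, as they were for 860 of 23185 genes (3.71%). Because the genes were chosen from these contrasts, the counts describe them and nothing more is read from them. The median difference over the 10 genes was 0.71 for CDE minus UTR, 0.25 for DDC minus UTR and -0.94 for DDC minus CDE, against 0.00, 0.01 and 0.01 over all genes.

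Hepcidin is best known as a hepatocyte product, so the hepatocyte markers were read array by array. The mean level of 14 such markers was 6.95 to 7.22 in UTR, 7.14 to 7.87 in CDE, 6.85 to 6.98 in DDC and 6.62 to 7.87 in YFP-. The top of the CDE range was replicate 2, the array with the highest Hamp, on which 11 of the 14 markers exceeded both UTR arrays, by 0.79 on average over the UTR mean. On CDE replicates 1 and 3, 6 and 5 of the 14 did so, with averages of 0.06 and 0.08. Apoa1, the main protein of high-density lipoprotein, measured 6.48, 8.81 and 6.39 in the CDE arrays and 6.42 and 6.50 in UTR. Apoc3, a triglyceride-rich lipoprotein component, measured 5.41, 7.80 and 5.84 in CDE and 4.24 and 5.38 in UTR. Alb, which encodes albumin, was high in all YFP+ arrays (11.70 to 12.58). On CDE replicates 1 and 3, Hamp measured 10.21 and 9.93. There Apoa1 was level with UTR, while Alb (12.48 and 12.54, against 12.34 and 12.45 in UTR) was slightly above both UTR arrays. Apoc3 was also above both UTR arrays there. With replicate 2 included, its CDE minus UTR difference was 1.54 ± 0.70, rank 27 of all genes by size. Hnf4a, also among the 14, went the other way. Every CDE array lay below both UTR arrays (-0.54 ± 0.24).

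Without CDE replicate 2, the CDE minus UTR difference was 4.91 for Hamp, at least 2.72 for Hamp2, 1.95 for Id1, 1.94 for Id3, 0.81 for Atoh8, 0.60 for Smad6 and 0.39 for Smad7. The order of the leading 4 genes was thus kept without that array. The same array also had the highest Reln of the YFP+ arrays (8.47 against 4.76 to 6.57), a stellate cell marker, although the mean over 6 stellate markers was 5.12 to 5.82 in CDE and 5.12 to 5.24 in UTR. Over all 14 hepatocyte markers, 11 were higher in CDE than in UTR by group mean (median 0.22) and 5 were higher in DDC than in UTR (median -0.17). In neither comparison did a hepatocyte marker pass the limma threshold of an adjusted p of 0.05. Of all 23185 genes, however, 0 passed in CDE minus UTR and 37 in DDC minus UTR. The lack of a call therefore does not show that these markers were equal. Between diets, where Hamp also had the largest difference, 1 of the 14, Hnf4a, was higher in DDC than in CDE (median over the 14 -0.35). Alb was called lower in DDC (-0.73 ± 0.09, limma adjusted p = 0.0162). Apoc3 (-1.88 ± 0.63, 0.206), Ttr, which encodes transthyretin (-0.40 ± 0.12, 0.156), and Tat, a tyrosine-degrading enzyme (-0.70 ± 0.18, 0.123), did not pass but had every DDC array below every CDE array. These markers, like hepcidin, were lower on DDC than on CDE. Against UTR, Hamp differed by 0.05 on DDC. Every DDC array lay below both UTR arrays for Alb (-0.60 ± 0.10), Tat (-0.70 ± 0.20) and Ttr (-0.26 ± 0.13), but not for Apoc3 (-0.34 ± 0.70). The part of these markers in the result was not tested.

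Bile duct markers were high in all YFP+ arrays, and their mean was lowest on CDE by a small margin. Their mean over 6 genes was 10.09 to 10.21 in UTR, 9.98 to 10.03 in CDE and 10.14 to 10.35 in DDC, so every CDE array lay below every UTR and DDC array. The keratin genes Krt19 (-0.31 ± 0.13) and Krt7 (-0.36 ± 0.17) were below UTR on all CDE arrays, and Krt7 (0.61 ± 0.15, limma adjusted p = 0.111) and Cftr (0.55 ± 0.19, 0.226) were above CDE on all DDC arrays. Epcam was the 1 of the 6 with a higher mean in CDE than in UTR (0.12 ± 0.10), and Sox9 was level (-0.02 ± 0.12). None of the 6 passed among the YFP+ groups. YFP+ arrays correlated with each other at r = 0.98 to 0.991 across genes. Endothelial markers averaged 4.95 to 5.80 and lymphocyte markers 4.21 to 4.40 in YFP+ arrays, and macrophage markers 5.88 to 7.15, with the top value in a CDE array. The part of any other cell type in the hepcidin differences was not tested beyond these values.

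**Figure D3:**
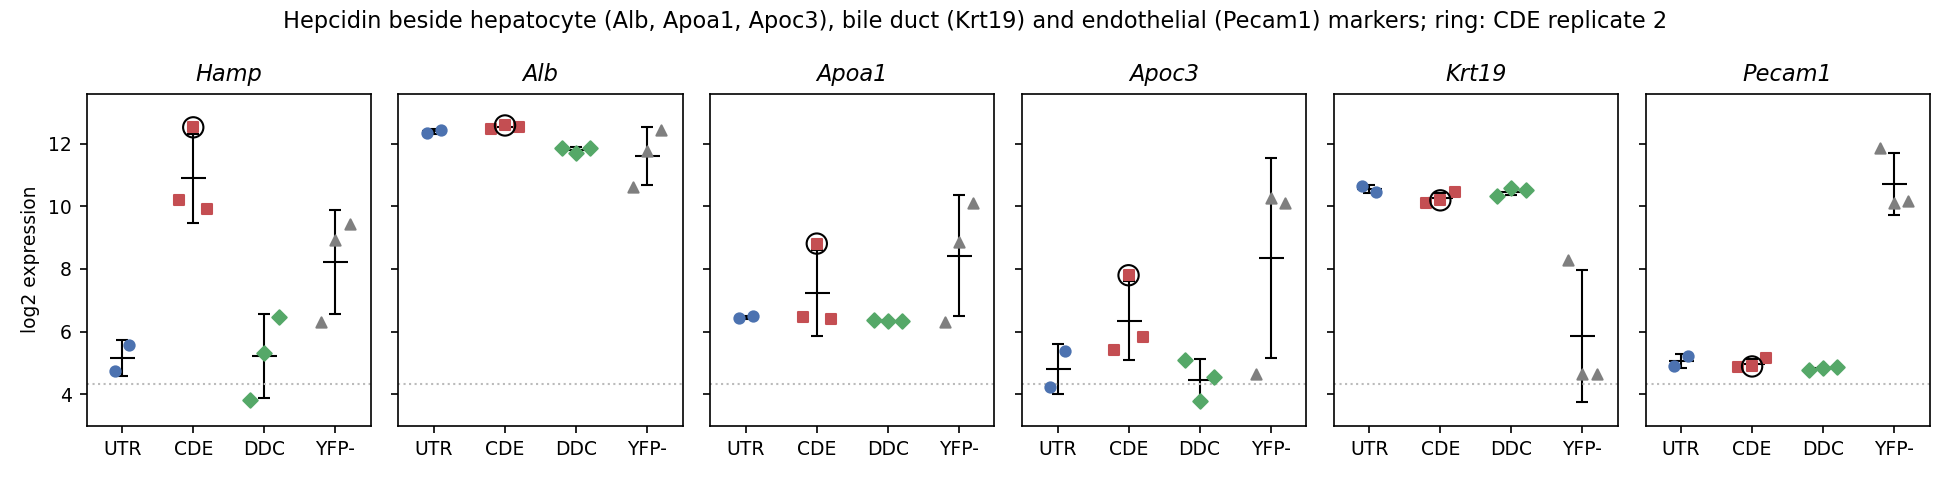
Log2 expression of Hamp beside 3 hepatocyte markers (Alb, Apoa1, Apoc3), a bile duct marker (Krt19) and an endothelial marker (Pecam1) on each array, by group, with bars for mean and SD, a dotted line at 4.33 and a ring around CDE replicate 2. Apoa1 was at 8.81 in the ringed array and at 6.48 and 6.39 in the other CDE arrays, where Hamp was 10.21 and 9.93.

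Agreement of hepcidin with its companions was read over the 8 YFP+ arrays, as a description. Pearson's r with Hamp was 0.96 for Id1 (Spearman's rho 0.86), 0.94 for Hamp2 (0.69), 0.86 for Id3 (0.74), 0.86 for Atoh8 (0.88), 0.73 for Smad7 (0.76) and 0.66 for Smad6 (0.60). It was 0.45 for Smad9, -0.13 for Id4 and -0.53 for Id2. The arrays form separate clusters in Hamp, with the CDE arrays at the top, so these values mostly restate the CDE difference, and arrays of a group share diet and sort. Within the 5 DDC and UTR arrays, r with Hamp was 0.36 for Id1, 0.06 for Id3, 0.22 for Atoh8 and -0.19 for Hamp2. Neither cluster holds enough arrays to test the relation.

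With each group's mean taken out, r over the 8 YFP+ arrays was 0.74 for Id1 (rho 0.67), 0.55 for Hamp2, 0.49 for Atoh8, 0.44 for Smad7, 0.36 for Id3 and -0.47 for Smad6. Id4, which did not differ on CDE, had 0.75. Within CDE, Id1, Id3, Id4, Smad7 and Atoh8, 5 of 9 genes, put the 3 arrays in the same order as Hamp. Within UTR, where the order is of only 2 arrays, 6 of 9 did so: Hamp2, Id1, Id3, Smad6, Smad7 and Atoh8 were all higher on replicate 2, as was Hamp. Within DDC and within YFP-, 1 of 9 genes matched the order of Hamp in each. The shares of all genes with these orders were not counted, so the counts are not read as particular to these genes. Among the hepatocyte markers, Apoa1 also had the order of Hamp within CDE, and Apoc3 did not. In YFP- cells, Hamp was highest on replicate 3 and lowest on replicate 1, whereas Id1 was lowest on replicate 2 (10.14, 8.41 and 11.23).

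**Figure D4:**
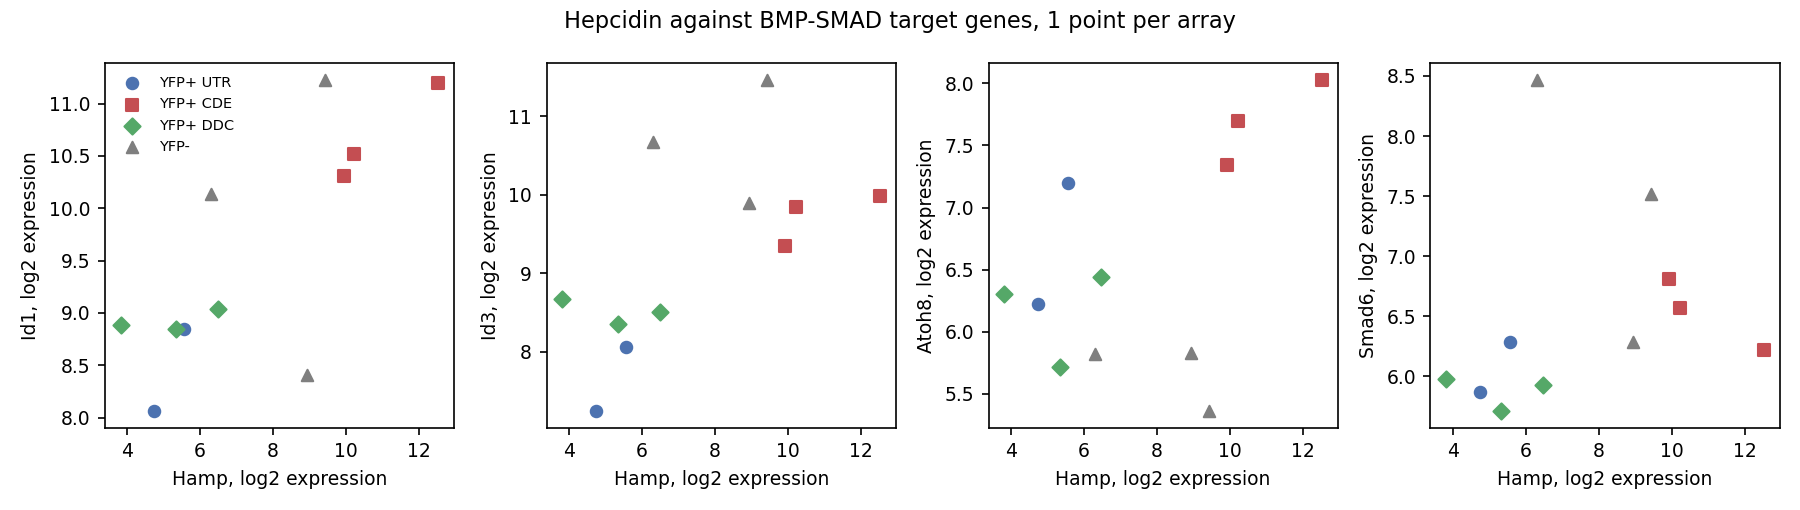
Log2 expression of Id1, Id3, Atoh8 and Smad6 (y axes) against that of Hamp (x axis), 1 point per array, coloured by group. The CDE arrays (Hamp 9.93 to 12.52) lie apart from the UTR and DDC arrays (3.82 to 6.48), and YFP- arrays with Hamp of 6.31 to 9.43 do not follow the YFP+ trend, with Id3 at 9.90 to 11.47 and Atoh8 at 5.36 to 5.83.

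Differences from YFP- cells were tested, since that contrast did not choose the genes. The 3 comparisons share the YFP- arrays, and their YFP+ arrays are those from which the genes were chosen. The p-values and the counts of settings below are therefore not independent of that choice. YFP- cells are a mixture. Endothelial markers averaged 10.01 to 11.70 in all 3 arrays, macrophage markers reached 11.56 on replicate 3, lymphocyte markers reached 10.80 on replicate 2, and bile duct markers reached 7.83 on replicate 1. YFP- arrays correlated with each other at r = 0.888 to 0.925 across genes, less closely than YFP+ arrays, so the shared spread of the fit is too small for genes that vary more among YFP- arrays.

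Id3 was lower in UTR than in YFP- cells. Its YFP- levels were 10.67, 9.90 and 11.47, above both UTR and all DDC arrays. The difference was -3.03 ± 0.42 for UTR (limma adjusted p = 0.0012) and -2.17 ± 0.37 for DDC (0.0027). In CDE it was -0.95 ± 0.37 (0.106), which did not pass, and was -1.34 (0.0157) without YFP- replicate 2. The DDC call held in 13 of 13 settings and the UTR call in 11 of 12; it was lost with only the arrays of those groups (adjusted p = 0.0577).

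Atoh8 was higher in CDE than in YFP- cells, where it measured 5.82, 5.83 and 5.36. The difference of 2.02 ± 0.30 (limma adjusted p = 0.00138) held in 13 of 13 settings. It was 1.04 ± 0.33 in UTR (0.0599) and 0.48 ± 0.30 in DDC (0.28), neither past the threshold, and the UTR value passed without UTR replicate 1 (1.53, 0.03). Hamp2 was higher in CDE than in YFP- cells by at least 2.70 ± 0.54 (0.00676), a call lost with array weights (0.0634) and with only those groups (0.0514). Both genes were chosen with their high levels on these CDE arrays known. Their CDE calls reuse those values and are no separate support.

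Hamp itself passed in none of the 3 comparisons. The differences were -3.07 ± 1.11 for UTR (limma adjusted p = 0.0902), 2.66 ± 1.00 for CDE (0.0912) and -3.02 ± 1.00 for DDC (0.0538). The YFP- arrays spread widely, from 6.31 to 9.43, in the same order as the mean of the 14 hepatocyte markers (6.62, 7.38 and 7.87). Single markers differed: Apoa1 (6.32, 8.86 and 10.11) kept that order, while Cyp2e1 (10.13, 6.43 and 7.64) and Apoc3 (4.66, 10.28 and 10.12) did not. The relation was not tested. Without YFP- replicate 1, Hamp passed in UTR (-4.02, 0.0168) and DDC (-3.97, 0.0102), and the DDC value also passed without DDC replicate 3 (-3.65, 0.0494).

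Id4 was 5.72, 5.89 and 6.03 in YFP- cells and lower in UTR (-0.78 ± 0.19, limma adjusted p = 0.0203) and in CDE (-0.72 ± 0.17, 0.0153). The UTR difference was -0.90 without UTR replicate 1 and -0.66 without UTR replicate 2. The UTR call was lost without YFP- replicate 3 (-0.70, 0.052), with array weights (0.0572) and with only the arrays of those groups (0.0816). The CDE call was lost without CDE replicate 1 (-0.69, 0.0571) or 3 (-0.68, 0.0578) and with array weights (0.0563). Id2 was higher in DDC than in YFP- cells (10.62, 11.40 and 11.29) by 0.57 ± 0.18 (0.0484), a call lost without any 1 of the DDC arrays (0.0981 to 0.123). The same call was lost with only the arrays of those groups (0.159), with array weights (0.0622) and with the replicate block (0.0782). Without YFP- replicate 2, Id2 also passed in UTR (0.74, 0.0296) and CDE (0.66, 0.0287).

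Smad6 was 8.47, 6.29 and 7.52 in YFP- cells and lower in DDC by a difference of -1.56 ± 0.45 (limma adjusted p = 0.0323). That call was lost without any 1 of the DDC arrays (0.0732 to 0.0934) or YFP- replicate 3 (0.0748), and with only the arrays of those groups (0.115). Id1 passed in none with all arrays (-1.47 ± 0.67 in UTR, 0.17). YFP- replicate 2, the array with high lymphocyte markers, carried the lowest Smad6, Id1 and Id3 of the YFP- arrays. Without it, Smad6 also passed in UTR (-1.92, 0.00319) and CDE (-1.47, 0.00651), and Id1 passed in UTR (-2.23, 0.00574) and DDC (-1.76, 0.00915). Smad7 passed in none of the comparisons with all arrays, and in UTR without YFP- replicate 3 (-0.69, 0.0264). Smad9, at 4.07, 4.19 and 4.18 in YFP- cells, passed in none.

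In all, 0 genes of the set were higher and 2 lower in UTR than in YFP- cells, against 10.4% and 8.46% of all genes. In CDE 2 were higher and 1 lower, against 12.2% and 9.45%, and in DDC 1 was higher and 2 lower, against 13.5% and 11.9%. With 10 genes these shares are near the background.

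**Figure D5:**
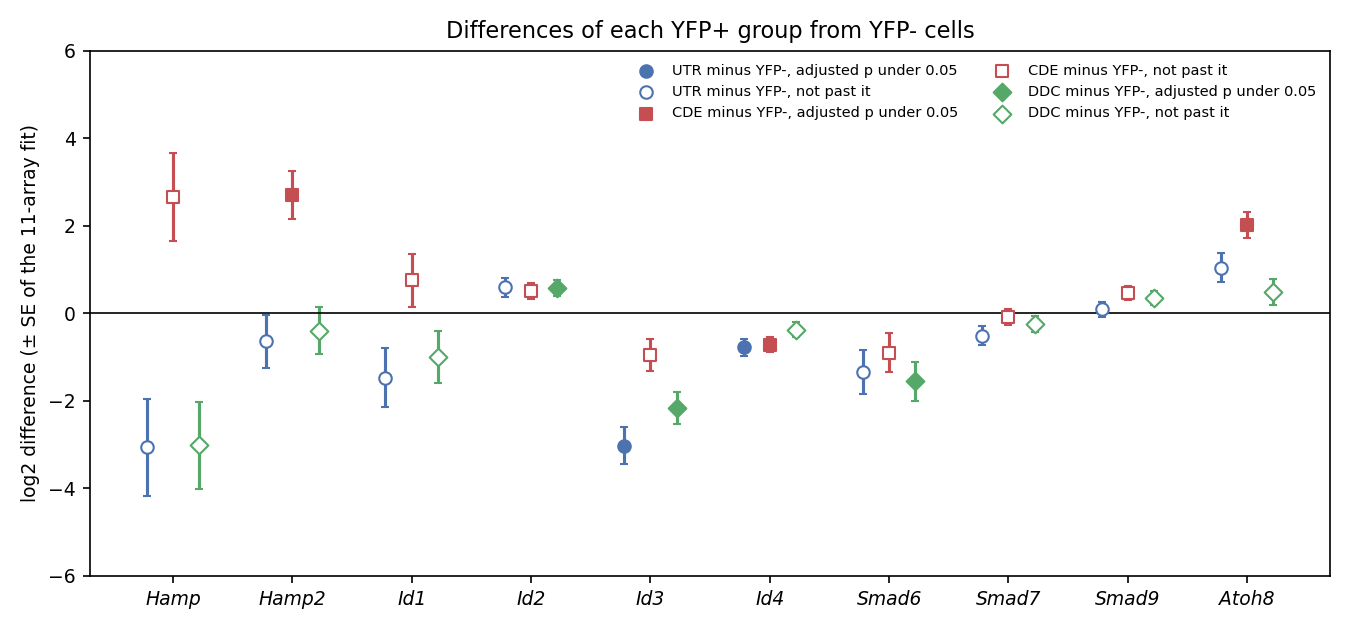
Log2 difference of each YFP+ group from YFP- cells for the 10 genes, with SE of the 11-array fit as bars and filled symbols for a limma adjusted p under 0.05. Id3 lay at -3.03 in UTR, -2.17 in DDC and -0.95 in CDE, and Atoh8 at 2.02 in CDE.

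The rest of the pathway was read from 9 lists of 107 genes with textbook roles, of which 104 were measured. Across all genes, the fit of the 8 YFP+ arrays called 0% of 23185 genes in CDE minus UTR, with 1492 at an unadjusted p under 0.05 and a lowest adjusted p of 0.0558. Leaving out dim genes or fitting an intensity trend called 1 gene. The fit called 0.160% of genes in DDC minus UTR and 1.16% in DDC minus CDE. Of the 104 pathway genes, 0 were called in CDE minus UTR, 1 in DDC minus UTR and 4 in DDC minus CDE.

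Of the BMP and activin ligands, 2 of 9 had a positive CDE minus UTR difference, with a median of -0.10, and none was called in that comparison. Bmp7, a ligand of epithelial development, was the ligand that passed between diets. It measured 7.56 and 7.64 in UTR, 7.23, 7.78 and 7.44 in CDE, and 6.36, 6.66 and 6.65 in DDC. All DDC arrays lay below all other YFP+ arrays. It was lower in DDC than in CDE by a difference of -0.92 ± 0.15 (limma adjusted p = 0.0379) and differed from UTR by -1.04 ± 0.17 (0.0796). The first call was lost on leaving out any 1 of the 6 CDE and DDC arrays (0.0685 to 0.127). It was also lost with all 11 arrays (0.599) and with the replicate block (0.0595). Bmp6, the main iron-responsive ligand and named here after its values were seen, measured 8.48 and 8.49 in UTR, 8.18, 7.30 and 8.31 in CDE, and 7.99, 8.30 and 7.67 in DDC, with a CDE minus UTR difference of -0.55 ± 0.30 (0.845).

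Receptors and co-receptors, signal-carrying SMADs, antagonists and brakes, E-protein partners of the ID proteins and other BMP-responsive factors held no called gene among the YFP+ groups. Their median CDE minus UTR differences were 0.03, -0.03, -0.03, 0.08 and 0.03 over 12, 5, 15, 3 and 8 measured genes. The largest by size on CDE were Eng, the endoglin co-receptor (-0.36 ± 0.19), Smad3 (-0.24 ± 0.19), the SMAD repressor Ski (-0.41 ± 0.19), Tcf3 (-0.32 ± 0.21) and Msx2 (0.17 ± 0.17, with both means dim). On DDC they were Acvr2a, an activin type 2 receptor (-0.46 ± 0.24), Smad4 (-0.27 ± 0.12), Twsg1 (-0.32 ± 0.21), Tcf4 (0.07 ± 0.18) and Gata3 (-0.39 ± 0.14). Hjv, which encodes hemojuvelin and was named after its values were seen, measured 4.65 and 4.72 in UTR and 4.71, 5.19 and 4.76 in CDE, with no separation of the groups.

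Other genes answer the TGF-beta branch, which runs through SMAD2 and SMAD3. Of 7 measured, 2 had a positive CDE minus UTR difference (median -0.10) and 5 a positive DDC minus UTR difference (median 0.31), and none was called. Pmepa1, a feedback inhibitor of that branch, measured 8.23 and 8.76 in UTR, 7.51, 7.31 and 7.85 in CDE, and 8.36, 8.51 and 8.26 in DDC. Its CDE arrays lay below all other YFP+ arrays (CDE minus UTR -0.94 ± 0.20, limma adjusted p = 0.475; DDC minus CDE 0.82 ± 0.18, 0.0785). Ltbp2, a matrix protein related to TGF-beta binding proteins, differed by 1.03 ± 0.36 on DDC (0.373).

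Of 23 measured iron genes, 14 had a positive CDE minus UTR difference (median 0.02) and 1 was called between diets. Steap4, a metalloreductase induced in inflammation, measured 6.93 and 6.90 in UTR, 6.51, 7.16 and 7.16 in CDE, and 9.19, 8.83 and 8.37 in DDC. All DDC arrays lay above all other YFP+ arrays. It was higher in DDC than in CDE by 1.85 ± 0.24 (limma adjusted p = 0.0184), a call lost without CDE replicate 1 (0.0639), CDE replicate 3 (0.0698), DDC replicate 1 (0.0522) or DDC replicate 2 (0.0703). The same call was also lost with all 11 arrays (0.229) and with the replicate block (0.0609). DDC exceeded UTR by 1.88 ± 0.27 (0.0556). Slc40a1, which encodes ferroportin and was named after its values were seen, measured 7.24 and 8.04 in UTR, 8.05, 8.39 and 8.45 in CDE, and 8.13, 8.23 and 8.21 in DDC. Its differences from UTR were 0.65 ± 0.22 on CDE (0.7) and 0.55 ± 0.22 on DDC (0.448).

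The interleukin-6, STAT3 and acute phase list was the other known drive of hepcidin. Of 22 genes, 15 had a positive CDE minus UTR difference (median 0.10) and 13 a positive DDC minus UTR difference (median 0.10). Hp, the acute phase protein haptoglobin, measured 8.75 and 8.24 in UTR, 9.56, 10.58 and 9.60 in CDE, and 11.59, 12.03 and 11.77 in DDC. The groups did not overlap and DDC was highest. Hp rose on DDC by 3.30 ± 0.31 over UTR (limma adjusted p = 0.0209) and exceeded CDE by 1.88 ± 0.28 (0.028), while CDE minus UTR was 1.42 ± 0.31 (0.51). The DDC minus UTR call was lost without UTR replicate 2 (3.04, 0.131) or any 1 of the DDC arrays (0.0575 to 0.0928). The DDC minus CDE call was lost without CDE replicate 1 (1.71, 0.111), CDE replicate 3 (1.73, 0.107) or any 1 of the DDC arrays (0.0609 to 0.0889). With all 11 arrays, neither the DDC minus UTR call (0.556) nor the DDC minus CDE call (0.487) held. Neither held with the replicate block (0.1 and 0.0648).

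Lbp, the lipopolysaccharide-binding protein of the acute phase, measured 9.67 and 9.69 in UTR, 8.15, 8.20 and 8.72 in CDE, and 9.72, 10.03 and 9.99 in DDC. Its CDE arrays were the lowest of the YFP+ arrays, where those of Hamp were the highest. Lbp was higher in DDC than in CDE by 1.56 ± 0.16 (limma adjusted p = 0.0119). That call was lost without CDE replicate 1 (1.46, 0.0506) and with all 11 arrays (0.376). CDE minus UTR was -1.33 ± 0.18 (0.18).

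Against YFP- cells, the BMP machinery of untreated YFP+ cells differed in named genes. Bmp2, a hepcidin-driving ligand of endothelial cells, measured 5.87 and 6.19 in UTR and 11.94, 9.81 and 10.38 in YFP- cells, a difference of -4.68 ± 0.52 (limma adjusted p = 0.000419). Eng was also lower in UTR (-5.43). Inhba, which encodes the activin A subunit, was higher in UTR (3.47), as were Bmp7 (1.77), the receptor genes Neo1 (2.86) and Bmpr1a (2.57), Smad3 (1.64), and the extracellular modulators Fstl3 (2.88) and Twsg1 (2.14). Skil (-1.25), Tcf4 (-1.83) and Gata2 (-1.45) were lower. In the TGF-beta list, Tgfbi (-4.55) and Tgfb1 (-3.13) were lower and Ltbp3 (2.23) was higher.

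Among hepcidin regulators, Tmprss6, the protease that cuts hemojuvelin and restrains hepcidin, was higher in UTR. It measured 7.81 and 8.13 in UTR and 5.63, 5.30 and 5.66 in YFP- cells (2.44 ± 0.19, limma adjusted p = 9.33e-05). Tmprss6 was similar across the YFP+ groups, with 7.82, 8.30 and 8.31 in CDE and a CDE minus UTR difference of 0.18 ± 0.18 (0.953). The ferroxidase gene Cp was higher (3.45), and Hfe, the hemochromatosis gene, was lower (-2.78). The acute phase genes Saa3, Saa1 and Saa2 were dim in UTR and lower by at least 3.89, 3.41 and 3.32. These genes were named because they passed in the 11-array fit, in which 35 of the 104 pathway genes and 4373 of all 23185 genes were called for UTR minus YFP-. Of those named, 8 passed in 12 of 12 settings: Bmp2, Inhba, Eng, Tcf4, Tgfbi, Tgfb1, Tmprss6 and Saa2. The others passed in 8 to 11 of 12.

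The genes whose pattern over the 8 YFP+ arrays was most like that of Hamp were named from 673 variable, non-dim genes, by Pearson's r. They were Cdkn2c (0.94), Gpc3 (0.93), Cxcl9 (0.92), Apoc2 (0.91), Serpina1b (0.90) and Serpina10 (0.90). Cdkn2c, a cell cycle inhibitor of the INK4 family, measured 7.45 and 7.91 in UTR, 8.66, 8.62 and 8.57 in CDE, and 7.28, 7.50 and 8.05 in DDC. Gpc3, an oncofetal glypican, measured 5.35 and 5.51 in UTR, 6.23, 6.78 and 6.62 in CDE, and 4.77, 4.67 and 5.18 in DDC. Without CDE replicate 2, r was 0.97 for Cdkn2c and 0.89 for Gpc3, and from 0.81 to 0.88 for the others. Apoc2, Serpina1b and Serpina10 are secreted products of hepatocytes and were each highest on CDE replicate 2, at 10.95, 11.34 and 11.11.

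Most like the mean of Id1 and Id3 were Slit2 (0.88), Cdkn2c (0.86), Mettl21a (0.86), Serpina10 (0.84), Cdh2 (0.84) and Cxcl9 (0.84), so 3 genes stood on both lists. Slit2, a secreted guidance cue, measured 6.98 and 6.01 in UTR, 8.77, 10.40 and 9.02 in CDE, and 7.27, 7.67 and 7.86 in DDC. As for Id3, the 3 groups did not overlap and DDC lay between. Its CDE minus UTR difference of 2.90 ± 0.48 ranked 4 of 23185. Cdh2, which encodes N-cadherin, measured 7.75 and 7.50 in UTR and 8.16, 8.97 and 8.58 in CDE. These genes were chosen by their likeness, so the differences are given without a test.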

How the data were processed

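Sorted cells of 11 samples were measured on Affymetrix MoGene 2.0 ST arrays. The authors deposited 1 log2 value per feature and array. The logarithm's base is inferred from their range (2.55 to 13.57), and the background correction and scaling used were not given in the sources used here. No further normalization was applied. Of 25206 features, the platform annotation gave 1 symbol to 23185 and several to 0, and 2021 were not listed in it and are unnamed here. Array medians were 5.63 to 5.76, no arrays were identical, and the number of arrays limits precision.

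The limma package (version 3.58.1, R 4.3.3) fitted group means with lmFit and eBayes, using the 8 YFP+ arrays for comparisons among YFP+ groups and all 11 for comparisons with YFP-. Tests were two-sided, with Benjamini-Hochberg adjustment over 23185 genes and a threshold of 0.05. The script was tested on simulated data. The genes and lists were chosen with earlier results of these data known. From each list the text names genes called among YFP+ groups, otherwise the largest CDE minus UTR and DDC minus UTR differences, and up to 3 called against YFP- by size in UTR. The genes most like hepcidin had an SD of at least 0.5 and a mean above 4.33, without small RNAs, receptor segments or predicted genes. Alternatives were other sample sets, array weights, a replicate block, quantile normalization, leaving out dim genes, an intensity trend and leaving out each array. Promoter sequence is not reported here.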

Additional observations from a re-analysis of the deposited data

Results flagged for a closer look

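Among the pathway genes, the effects of the diets differed by limma's DDC minus CDE contrast on the 8 YFP+ arrays for Bmp7 (-0.92), Steap4 (1.85), Hp (1.88) and Lbp (1.56). For Lbp, every CDE array also lay below both UTR arrays and every DDC array above both, with 1.56 between the diets. That the effects run opposite ways against UTR was not tested, and neither effect passed alone: CDE minus UTR was -1.33 ± 0.18 (limma adjusted p = 0.18) and DDC minus UTR 0.23 ± 0.18 (0.713), the lowest DDC array lying at 9.72 against 9.69 in UTR.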

How the results depend on the processing

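No difference of a member or named pathway gene that was called in the main fit changed direction under any alternative run. Ltf, an iron list gene not called in the main fit, did change direction. Its difference ran from -4.46 to 0.15 in CDE minus UTR and from -4.01 to 0.61 in DDC minus UTR, with UTR arrays at 4.52 and 9.14. Among all genes, CDE minus UTR had 0 calls, and 1 with dim genes left out and 1 with an intensity trend. DDC minus UTR fell from 37 calls to 0 with all 11 arrays and 0 with the replicate block, and DDC minus CDE from 269 to 1 and 61. Pathway calls went from 1 to 0 with all 11 arrays and 0 with the block in DDC minus UTR (2 with dim genes left out and 2 with the trend), and from 4 to 0 with all 11 arrays and 1 with the block in DDC minus CDE. With only the arrays of the groups compared, calls against YFP- fell from 4373 to 931 (UTR), 5027 to 3240 (CDE) and 5878 to 3381 (DDC), pathway calls for UTR from 35 to 9, and member calls from 2 to 0 (UTR) and from 3 to 1 (DDC). Array weights left 1 member call of 2 for UTR and 1 of 3 for CDE, and quantile normalization gave 5 for CDE. The r of Id1 with Hamp was 0.96 and, for deviations from group means, 0.74. The cause of these changes was not tested, beyond the smaller number of arrays where groups were left out. Leaving out 1 array in turn gave 0 to 46 calls in CDE minus UTR (46 without UTR replicate 1, 1 without UTR replicate 2), 0 to 103 in DDC minus UTR (103 without UTR replicate 1) and 16 to 123 in DDC minus CDE. Against YFP- it gave 2306 to 5817 (UTR), 3452 to 6255 (CDE) and 4403 to 6922 (DDC). Pathway calls ran 0 to 1, 0 to 2, 0 to 6, 22 to 48, 32 to 49 and 36 to 51 in the same order, and member calls against YFP- 1 to 5, 2 to 6 and 1 to 4. The median member difference ran 0.52 to 1.06, 0.08 to 0.32 and -1.01 to -0.86 among YFP+ groups, and the r of Id1 with Hamp 0.92 to 0.99 over arrays left out, an alternative chosen after seeing the data. Single members against YFP- kept their side of the threshold in 309 comparisons with an alternative, lost it in 22 and gained it in 19; with the replicate block, Hamp passed in CDE (0.0438) and DDC (0.0252) and Id2 in DDC did not (0.0782). For same-numbered arrays, the correlation of deviations from group means was -0.072 to 0.131, and 4 of 8 YFP+ arrays matched best with their own number. With so few arrays per group, these values cannot exclude a pairing or shared batch. The main fits used the labels' numbers only to name arrays.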
